A study of Mus musculus with 6 samples.

Results

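Among the genes whose RNA counts separated Dok6 mutant from control mice were 10 with a steep difference, and these are described here with their spread within each genotype, their place in the genome and the genes that share sequence with them. They are Gm15446, Wdfy1, 9330132A10Rik, Gm28438, D7Bwg0826e, Gm49191, Gm26917, Gm26583, Stbd1 and Ehd2, 10 of the 54532 genes in the count table and of the 17099 with enough counts to be tested. All 10 were chosen by their measured difference between the genotypes in these same libraries, so their values are a description and carry no test. RNA came from the sciatic nerves of 3 control mice, labelled WT, and 3 Dok6 mutant mice, labelled Dok6 KO, at postnatal day 3, with 1 library per mouse. Dok6 encodes a docking protein that acts below receptor tyrosine kinases in neurons. The mutant lacks exon 3 of Dok6 in all tissues: a floxed allele made in C57BL/6 embryonic stem cells was crossed to FLP deleter mice to remove the Neo cassette and then to EIIA-cre mice, in which Cre acts in the early embryo. Both genotypes were kept on a C57BL/6 background, the line was backcrossed to C57BL/6, and a supplementary legend of the study calls the controls littermates without saying which mice shared a litter; the substrain of the stem cells, of the deleter lines and of the control mice is not given in the sources used here, and neither is the sex of each mouse.

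Inbred substrains of a mouse strain differ at scattered loci, and a targeted line can carry alleles from its stem cells or from deleter lines beside the targeted change. Such passenger alleles are known to sit close to the targeted gene or anywhere in the genome after few backcrosses, and they can shift the RNA of a single gene without moving its neighbours. Genes present in several near-identical copies add a further point, because a read from 1 copy may be counted on another. Read alleles are not part of a count table, so no genotype at any locus was tested here.

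The libraries held 17699904 to 18678170 counts, and 3 counts, taken as the smallest detectable level, corresponded to 0.156 to 0.172 CPM (library-scaled counts, with TMM factors). Dok6 (chromosome 18) had 311, 208 and 306 counts in the control mice against 140, 106 and 135 in mutants. The log2 fold change was -1.23 ± 0.20 (SE, n = 3 mice per genotype; adjusted p = 0.0118, edgeR quasi-likelihood test), with counts taken over all exons. The tissue label was checked against marker lists. The 12 central nervous system markers, among them Gfap and genes of GABA neurons, summed to 2235 to 3045 CPM in the controls and 2025 to 3204 in the mutants, above the sum of the 12 Schwann cell and myelin markers in every library except mutant 2 (259 to 1914 CPM in the controls, 438 to 6944 in the mutants). The mutant 2 library, with the highest Schwann cell and myelin sum, stood apart. In bulk tissue, fewer cells of a type and less RNA per cell cannot be told apart.

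In the fit over all genes, 14.6% of tested genes had an adjusted p under 0.05 (8.62% higher and 6.01% lower in the mutant), and in 38.2% the genotypes did not overlap. All 10 genes passed and none overlapped between genotypes, as their selection on this contrast implies; 4 were higher and 6 lower in the mutant. Beyond a log2 fold change of 2 in addition, 1.08% of tested genes were called higher and 0.111% lower, and 2 and 5 of the 10 were among them. Ordered by p over all tested genes, Gm15446, Wdfy1 and 9330132A10Rik came first, and Gm28438, Ehd2 and Stbd1 stood at ranks 5, 6 and 9. Aqp1, a water channel gene at rank 4 with a log2 fold change of 4.53, and Gabra2, a GABA-A receptor subunit gene at rank 10, lay next to them in that order and are not in the set. Gm49191, D7Bwg0826e, Gm26917 and Gm26583 ranked lower by p but were 7th, 10th, 11th and 14th among called falls by size, where Gm37023, with -4.64, took the place after Gm15446.

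**Figure D1:**
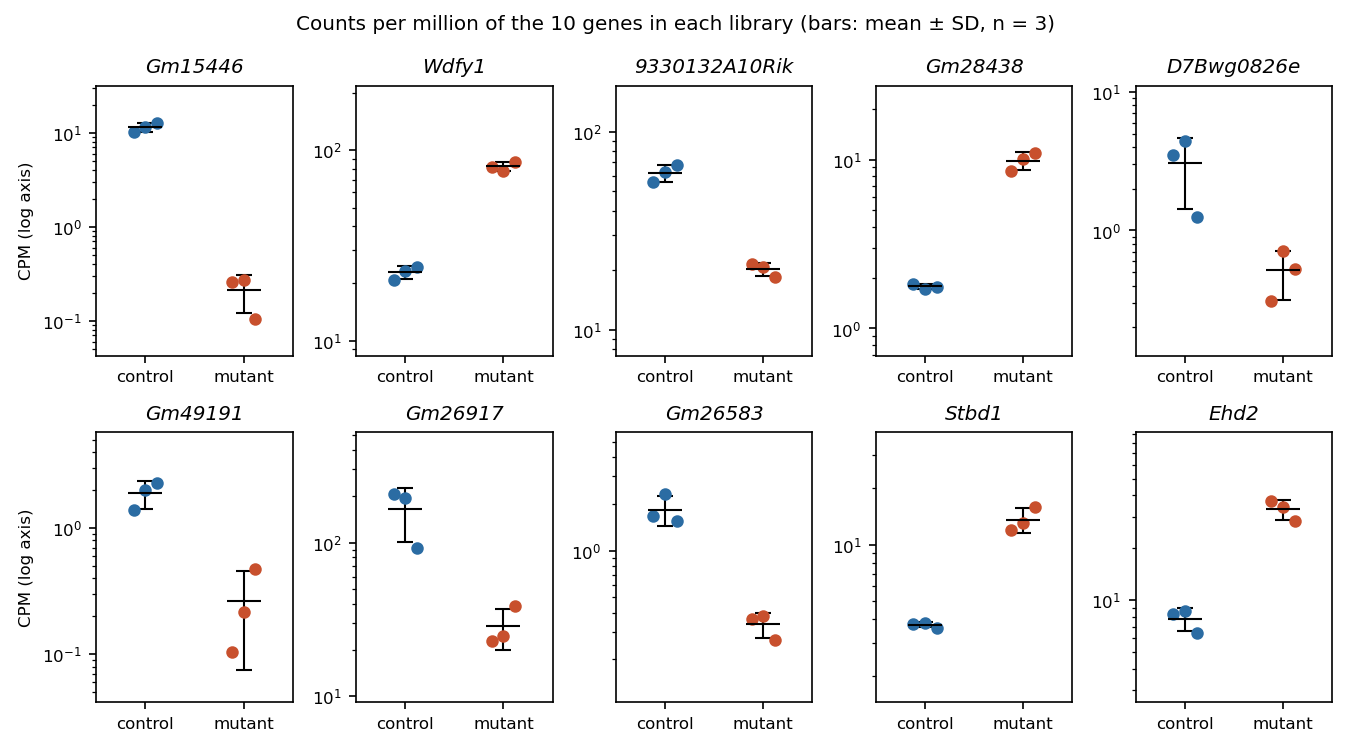
CPM of the 10 genes on log axes, 1 point per library, with the mean ± SD of 3 mice as black bars. No control point overlaps a mutant point; the control points of Gm28438 lie within 1.07-fold of each other, whereas those of D7Bwg0826e spread 3.51-fold.

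Wdfy1 (ENSMUSG00000073643, chr1:79702262-79776143, minus strand) encodes a WD repeat protein with a FYVE domain that binds early endosomes and serves as an adaptor of Toll-like receptors 3 and 4. Its counts were 363, 404 and 429 in the control mice and 1575, 1434 and 1640 in the mutants. The mutant mean was 82.3 ± 4.37 CPM against 22.8 ± 1.87 CPM in controls (SD, n = 3), a log2 fold change of 1.85 ± 0.10 (SE). Within a genotype the highest library exceeded the lowest by 1.18-fold in controls and 1.11-fold in mutants, the narrowest mutant range of the 10 genes.

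The first exon of Wdfy1 shares 126 bases with Mrpl44, a mitochondrial ribosomal protein gene on the opposite strand. Mrpl44 had 288, 316 and 274 counts in controls and 296, 280 and 259 in mutants, with a log2 fold change of -0.18 ± 0.13 that did not pass (adjusted p = 0.343). Of 15 tested genes from a list of the WDFY family and of Toll-like receptor 3 signaling, Wdfy1 left out, 4 were higher and none lower with edgeR, beside 8.62% and 6.01% of all tested genes. DESeq2 called 4 higher and 1 lower, and limma voom 3 higher and none lower. The list's median log2 fold change was 0.41 beside 0.01 over all tested genes. Ticam1, which encodes the adaptor TRIF, rose by 1.05 ± 0.30 (adjusted p = 0.0487), and Irf3, the transcription factor it activates, rose by 0.82 ± 0.12 (adjusted p = 0.00996). Ripk1, a kinase of the same pathway, rose by 0.72 ± 0.16 (adjusted p = 0.0264) and the family member Wdfy3 by 0.41 ± 0.10 (adjusted p = 0.0347). Wdfy2, with 0.24 ± 0.13, and Tlr3 itself, with 0.67 ± 0.34, did not pass (adjusted p = 0.217 and 0.197). Traf6, Tbk1, Nfkb1 and Traf3 went the other way, with -0.56 ± 0.16, -0.33 ± 0.15, -0.17 ± 0.16 and -0.11 ± 0.12. None of these passed with edgeR (adjusted p = 0.0523, 0.159, 0.494 and 0.578).

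Stbd1 (ENSMUSG00000047963, chr5:92603041-92606579, plus strand) encodes a starch-binding protein that ties glycogen to membranes for its delivery to lysosomes. Its counts were 66, 67 and 63 in controls and 231, 238 and 301 in mutants. The control libraries differed by 1.07-fold and the mutants by 1.33-fold. The means were 3.74 ± 0.125 and 13.6 ± 2.06 CPM (SD, n = 3), a log2 fold change of 1.86 ± 0.17.

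Of 25 other tested genes of glycogen metabolism, 2 were higher and 1 lower, a share near that of all tested genes (8.62% higher, 6.01% lower), with a median log2 fold change of 0.04. DESeq2 called 4 higher and 1 lower, and limma voom 3 higher and 1 lower. Gys1, the muscle form of glycogen synthase, rose by 0.96 ± 0.13 (adjusted p = 0.0072) and Phkb, a phosphorylase kinase subunit, by 0.50 ± 0.10 (adjusted p = 0.0176). Gabarapl1, the ATG8 family protein that STBD1 binds, fell by 0.30 on the log2 scale (SE 0.08, adjusted p = 0.0423). Gbe1, the branching enzyme gene, and Gaa, the lysosomal glucosidase gene, had log2 fold changes of -0.16 ± 0.12 and -0.11 ± 0.07 and did not pass. Ppp1r3a, a muscle glycogen-targeting subunit that was not tested, had 0 counts in all 3 controls and 23, 19 and 2 in the mutants.

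Ehd2 (ENSMUSG00000074364, chr7:15946958-15967567, minus strand) encodes an ATPase that sits at the neck of caveolae and holds them at the cell surface. Its counts were 144, 151 and 112 in controls and 711, 633 and 534 in mutants. The lowest mutant library was far above the highest control. The means were 7.77 ± 1.20 and 33.2 ± 4.44 CPM (SD, n = 3), a log2 fold change of 2.09 ± 0.16, with ranges of 1.35-fold in controls and 1.30-fold in mutants.

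Its 3 relatives Ehd1, Ehd3 and Ehd4, which act in endosomal recycling, did not pass, with log2 fold changes of 0.14 ± 0.09, -0.12 ± 0.09 and 0.32 ± 0.13. Over the list of EHD and caveola genes, 4 of 16 tested were higher and none lower with edgeR, beside 8.62% and 6.01% of all tested genes, with a median of 0.32. DESeq2 called 6 higher and limma voom 3, and neither called any lower. Cav1, the caveola coat protein gene, rose by 1.40 ± 0.28 (adjusted p = 0.0186), and Cavin1, which encodes its partner, by 1.27 ± 0.29 (adjusted p = 0.0275). Myof rose by 1.46 ± 0.35 (adjusted p = 0.0297) and Pacsin2, a membrane-bending protein gene, by 0.55 ± 0.11 (adjusted p = 0.0198). The other tested caveolin and cavin genes, Cav2, Cavin2, Cavin3 and Cavin4, had 0.02 ± 0.10, -0.00 ± 0.23, 0.62 ± 0.18 and 0.07 ± 0.28. They did not pass with edgeR (adjusted p = 0.888, 0.995, 0.051 and 0.887).

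Across the 3 pathway lists and a list of structural RNAs, 12 of 60 tested genes passed, beside 14.6% of all tested genes, and none did without control replicate 2. Without mutant replicates 1, 2 and 3 the number was 4, 5 and 22. The share of all tested genes that passed in these fits is not given here.

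Markers of several cell types, some of them rich in caveolae or glycogen, were read as well. Beside the counts that follow, 8.62% of all tested genes were higher and 6.01% lower with edgeR. Of 11 tested skeletal muscle markers, 8 were higher (10 with DESeq2 and 4 with limma voom). The 14 listed genes summed to 34.9 to 51.8 CPM in controls and 152 to 695 CPM in mutants, and Tnnc2 was at 0 counts in all libraries. Among mutants the highest sum exceeded the lowest by 4.57-fold for muscle, 1.37-fold for endothelial and 1.56-fold for fibroblast markers, and the range was 1.33-fold for Stbd1 and 1.30-fold for Ehd2. Of 10 endothelial markers 4 were higher (5 with DESeq2 and 4 with limma voom), with sums of 208 to 334 and 357 to 488 CPM, and of 8 fibroblast markers 4 were higher (6 with each of the other tools), with sums of 335 to 1197 and 2067 to 3221 CPM. Of 12 DRG (dorsal root ganglion) neuron markers 9 were higher (10 with DESeq2 and 8 with limma voom), with sums of 138 to 152 and 279 to 719 CPM. Of the 12 Schwann cell and myelin markers 5 were higher (3 with DESeq2 and none with limma voom; 6 had an unadjusted p under 0.05), with a median log2 fold change of 1.83 and the sums given above. Of 8 adipocyte markers 1 could be tested, Fabp4, which rose by 3.69 ± 0.82 (adjusted p = 0.025) but was not called with limma voom, while Adipoq had at most 4 counts in any library; the list summed to 0.686 to 1.38 and 1.7 to 10.1 CPM. Of 8 smooth muscle and pericyte markers 1 was higher (4 with DESeq2 and none with limma voom). An unadjusted p under 0.05 was found for 6 of them, and the list summed to 155 to 241 and 255 to 541 CPM. Of 5 erythroid markers 3 were lower, with sums of 418 to 714 and 72.5 to 279 CPM. Of 8 macrophage markers none passed with edgeR, although 3 had an unadjusted p under 0.05 and DESeq2 and limma voom called 2 and 1 higher. The part of these cell types in the differences of Stbd1, Ehd2 and their lists was not tested.

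Gm15446 (ENSMUSG00000090015, chr5:109923400-109943936, plus strand) had the largest log2 fold change downward of all called genes. GENCODE lists it as protein coding and RefSeq as a long noncoding RNA, and it stands in a cluster of zinc finger genes. Its counts were 178, 199 and 221 in controls and 5, 5 and 2 in mutants. The mutant libraries held 12 counts in all against 598 in controls, and the ratio of these sums, scaled to library totals, was 0.0194 with a 95% exact counting interval of 0.00995 to 0.0341. The control level was 11.4 ± 1.21 CPM (SD, n = 3), and the fitted log2 fold change was -5.70 ± 0.29. The mutant level of 0.213 ± 0.0927 CPM lay close to the floor, so its 2.57-fold range among mutants rested on few counts.

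Zfp932, a zinc finger gene that starts 52.6 kb further along chromosome 5, matches the Gm15446 transcript at 97.39% over 1765 bases, 73.0% of its length, with 45 mismatches. The match holds runs of up to 344 identical bases, within which a read pair could come from either gene. The 90-base coding stretch where the transcripts differ most, with 24 mismatches, is shown because reads from it can be told apart, with the differing bases in capitals (GENCODE M21 transcripts, GRCm38, plus strand, chr5:109942188-109942277 and chr5:110008661-110008750).
Gm15446: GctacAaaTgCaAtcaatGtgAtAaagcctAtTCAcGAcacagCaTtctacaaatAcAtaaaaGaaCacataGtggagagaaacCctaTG
Zfp932: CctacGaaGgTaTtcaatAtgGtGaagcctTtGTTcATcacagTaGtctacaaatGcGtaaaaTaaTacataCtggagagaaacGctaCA
Zfp932 had 201, 190 and 256 counts in controls and 222, 206 and 246 in mutants. The genotypes overlapped, and its log2 fold change was -0.05 ± 0.16 (adjusted p = 0.851). Whether reads of either gene were counted on the other was not tested. Gm26808, whose exon shares 12 bases with Gm15446 on the opposite strand, held at most 2 counts in any library.

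Gm28438 (ENSMUSG00000101939, chr1:24612775-24613119, minus strand) is an unprocessed pseudogene, a nuclear copy of the mitochondrial gene mt-Nd3, which encodes a subunit of respiratory complex I. It belongs to a stretch of chromosome 1 where several mitochondrial genes lie copied side by side. Over its 345 bases Gm28438 differs from mt-Nd3 at 1 base, C3T, counted from the 5′ end of both genes with the base of Gm28438 first, which is position 9461 of the mitochondrial sequence. The first 90 bases of both are shown with that base in capitals (GENCODE M21, chr1:24613030-24613119 on the minus strand and chrM:9459-9548 on the plus strand).
Gm28438: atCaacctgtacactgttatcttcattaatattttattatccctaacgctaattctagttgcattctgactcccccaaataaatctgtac
mt-Nd3: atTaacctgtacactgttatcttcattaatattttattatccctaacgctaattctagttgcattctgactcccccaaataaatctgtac
A read that does not cover this base and stays inside the copy fits both genes equally.

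Gm28438 counts were 32, 30 and 31 in controls and 166, 185 and 206 in mutants. The control libraries differed by 1.07-fold, the smallest range among the 10 genes together with Stbd1, and the mutants by 1.27-fold. The means were 1.78 ± 0.0582 and 9.87 ± 1.17 CPM (SD, n = 3), a log2 fold change of 2.47 ± 0.19.

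The mitochondrial partner went the other way. The counts of mt-Nd3 were 137, 134 and 193 in controls and 48, 45 and 135 in mutants, and the mutant 3 library lay near the controls. Its log2 fold change of -1.13 ± 0.40 did not pass (adjusted p = 0.0892, edgeR), but did with DESeq2 (-1.15, adjusted p = 0.0162), without a filter on low counts (-1.14, adjusted p = 0.0214) and without mutant replicate 3 (-1.84, adjusted p = 0.0104). Of the counts on both genes together, 18.9% (95% Wilson interval 13.7 to 25.5), 18.3% (13.1 to 24.9) and 13.8% (9.92 to 19.0) were on Gm28438 in the control mice. In the mutants the shares were 77.6% (71.5 to 82.6), 80.4% (74.8 to 85.0) and 60.4% (55.1 to 65.5). The pair held 169, 164 and 224 counts in controls and 214, 230 and 341 in mutants. The shares are a description, since they are built from the Gm28438 counts on which the gene was chosen. These intervals cover counting error only.

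The other copies in the stretch were compared in the same way, a comparison chosen after their values were seen. Of 7 pairs, 2 had shares that did not overlap between genotypes, Gm28438 with mt-Nd3 and Gm28437 with mt-Co3. The first of these pairs holds the gene selected on this contrast. Levels did not overlap in 38.2% of all tested genes, but that is a different measure, and no such percentage was computed for shares. Gm28437 is identical to mt-Co3 over 783 bases and took 12.6%, 19.8% and 22.9% of the pair's counts in controls and 36.9%, 34.8% and 29.4% in mutants. There mt-Co3 fell by 0.95 on the log2 scale (SE 0.16, adjusted p = 0.0135), while Gm28437 itself had 0.28 ± 0.21 (adjusted p = 0.391). The shares of Gm10222, Gm10925, Gm28661, Gm28439 and Gm29216 overlapped. Of 13 tested mitochondrial protein genes none was higher and 1, mt-Co3, was lower (edgeR; 0 higher with DESeq2 and limma voom, and 2 genes with an unadjusted p under 0.05), over a range of -1.13 to 0.64. Which base the mitochondrial genome of these mice carries at position 9461 was not tested.

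**Figure D2:**
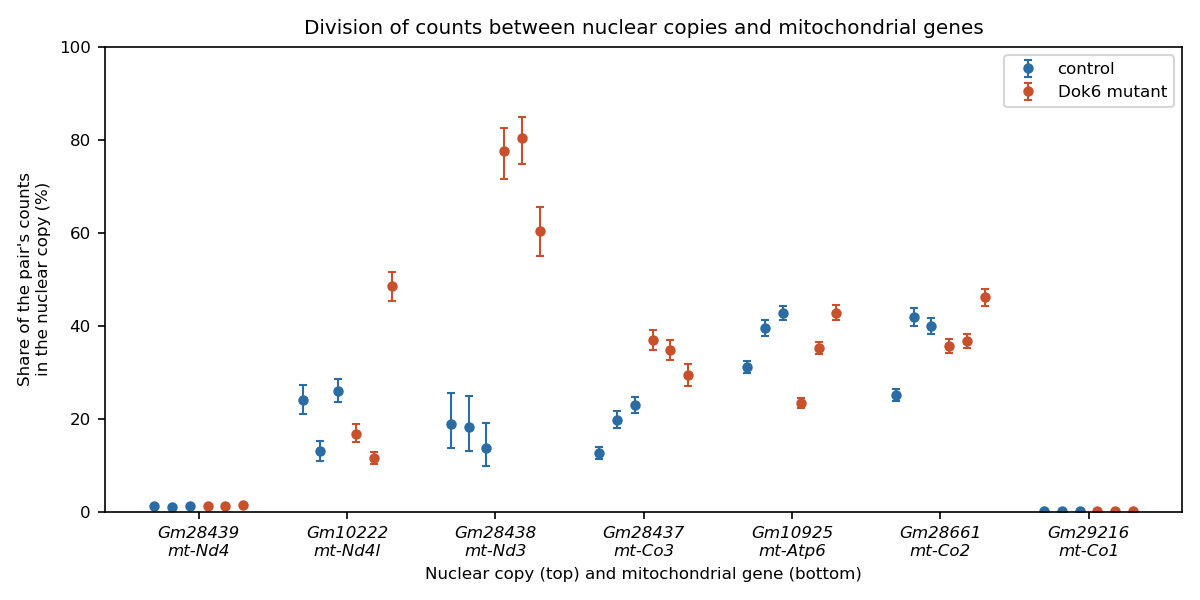
Share of the counts of each pair that fell on the nuclear copy (percent, 0 to 100), 1 point per library with its 95% Wilson interval, for the 7 chromosome 1 copies in their order on the chromosome. Gm28438 held 13.8% to 18.9% in controls and 60.4% to 80.4% in mutants, the widest gap of the 7 pairs.

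Over all genes with exons that overlap these genes or with near-identical transcripts, 5 were found and 4 tested, Zfp932, Mrpl44, mt-Nd3 and Fuz. None passed with edgeR or limma voom and 1, mt-Nd3, with DESeq2; 2 had an unadjusted p under 0.05.

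9330132A10Rik (ENSMUSG00000043498) is a gene known by its cDNA clone name. Its identifier is not in the annotation used here, and no position is given for it. Its counts were 968, 1086 and 1187 in controls and 412, 380 and 350 in mutants. The lowest control had more than 2 times the counts of the highest mutant. The means were 61.9 ± 6.18 and 20.2 ± 1.48 CPM (SD, n = 3), a log2 fold change of -1.61 ± 0.11, with ranges of 1.22-fold and 1.15-fold.

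Gm26917 (ENSMUSG00000097971, chr17:39843013-39846341, plus strand) is a long intergenic noncoding RNA and in controls the most abundant of the 10 per length, at 49.5 CPM per kb. In mutants it was at 8.57 CPM per kb, below Gm28438 at 28.6 and Wdfy1 at 12.7. Its counts were 3639, 3388 and 1602 in controls and 437, 449 and 725 in mutants. Control 3 lay well below the other controls and mutant 3 above the other mutants, and the ranges were 2.28-fold and 1.69-fold. The log2 fold change was -2.53 ± 0.32. It ends 11 bases before CT010467.1, an annotated ribosomal RNA gene on the opposite strand. CT010467.1 had 3753, 4332 and 2846 counts in controls and 3233, 4133 and 3309 in mutants, with a log2 fold change of -0.14 ± 0.17 (adjusted p = 0.587). Gm42418 and AY036118, the noncoding RNAs that overlap that ribosomal gene, had 0 counts in every library. Of 4 tested structural RNAs, 1 was higher, Neat1, the scaffold of paraspeckles, with 1.70 ± 0.22 (adjusted p = 0.00716), and none was lower with edgeR, DESeq2 or limma voom.

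D7Bwg0826e (ENSMUSG00000109198, chr7:44894305-44898099, minus strand) is a single-exon transcript that still awaits experimental evidence in GENCODE. Its counts were 61, 77 and 22 in controls and 6, 13 and 10 in mutants. Control 3 held the fewest counts of the controls and was at 1.26 CPM against 0.709 CPM in the highest mutant. The fitted log2 fold change was -2.55 ± 0.52. It shares 1207 exonic bases with Fuz, a planar cell polarity gene needed for cilia, on the opposite strand. Fuz had 189, 157 and 164 counts in controls and 147, 137 and 149 in mutants, with a log2 fold change of -0.35 ± 0.15 (adjusted p = 0.141). Whether counting used the strand is not given in the sources used here, and without strand the reads of the shared bases cannot be told apart.

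Gm49191 (ENSMUSG00000115560, chr15:23401464-23414457, minus strand) is an antisense RNA inside the span of Cdh18, a cadherin gene. Its counts were 24, 35 and 40 in controls and 2, 4 and 9 in mutants. The ratio of summed counts, 15 against 99, was 0.146 with a 95% exact counting interval of 0.0789 to 0.253, and the fitted log2 fold change was -2.80 ± 0.50 (-3.51 without mutant replicate 3). The mutant range of 4.60-fold was the widest of the 10 genes. Cdh18 had 468, 582 and 566 counts in controls and 484, 409 and 411 in mutants, and it fell by 0.42 on the log2 scale (SE 0.12, adjusted p = 0.0497). This call was lost with limma voom (adjusted p = 0.0539), upper-quartile scaling (0.0546), at least 10 counts in every library (0.052) and the replicate block (0.124). It was also lost with any mouse left out except control 1 (adjusted p of 0.0793 to 0.178).

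Gm26583 (ENSMUSG00000097476, chr12:112946363-112950512, minus strand) is a long intergenic noncoding RNA. Its counts were 29, 40 and 27 in controls and 7, 7 and 5 in mutants. The groups were 1.83 ± 0.402 and 0.337 ± 0.0628 CPM (SD, n = 3), with ranges of 1.49-fold and 1.44-fold and a log2 fold change of -2.42 ± 0.36. Without control replicate 2 the adjusted p of Gm26583, Gm26917, Gm49191 and D7Bwg0826e was above 0.05 (0.063, 0.0504, 0.0768 and 0.0945), given as a description since the same contrast chose these genes. D7Bwg0826e was also above it without control replicate 1 and without mutant replicate 1 (0.0523 and 0.0611).

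The 10 genes therefore differed among themselves in spread. The pooled SD of log2 CPM within genotypes was 0.10 for Wdfy1, 0.13 for 9330132A10Rik and Gm28438 and 0.15 for Stbd1, below the median of 0.18 over all tested genes. Ehd2, Gm26583 and Gm15446 had 0.21, 0.25 and 0.34. Gm26917, Gm49191 and D7Bwg0826e had 0.55, 0.58 and 0.73, each beyond the 90th percentile of tested genes, at 90.6, 91.7 and 96.0. Divided by this SD, the difference of the genotype means of log2 CPM was 19.0 for Gm28438, 18.4 for Wdfy1, 15.1 for Gm15446, 12.6 for 9330132A10Rik and 11.9 for Stbd1. It was 9.69 for Ehd2, 8.39 for Gm26583, 4.52 for Gm26917, 4.35 for Gm49191 and 3.03 for D7Bwg0826e, which ranked 2912th of all tested genes.

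**Figure D3:**
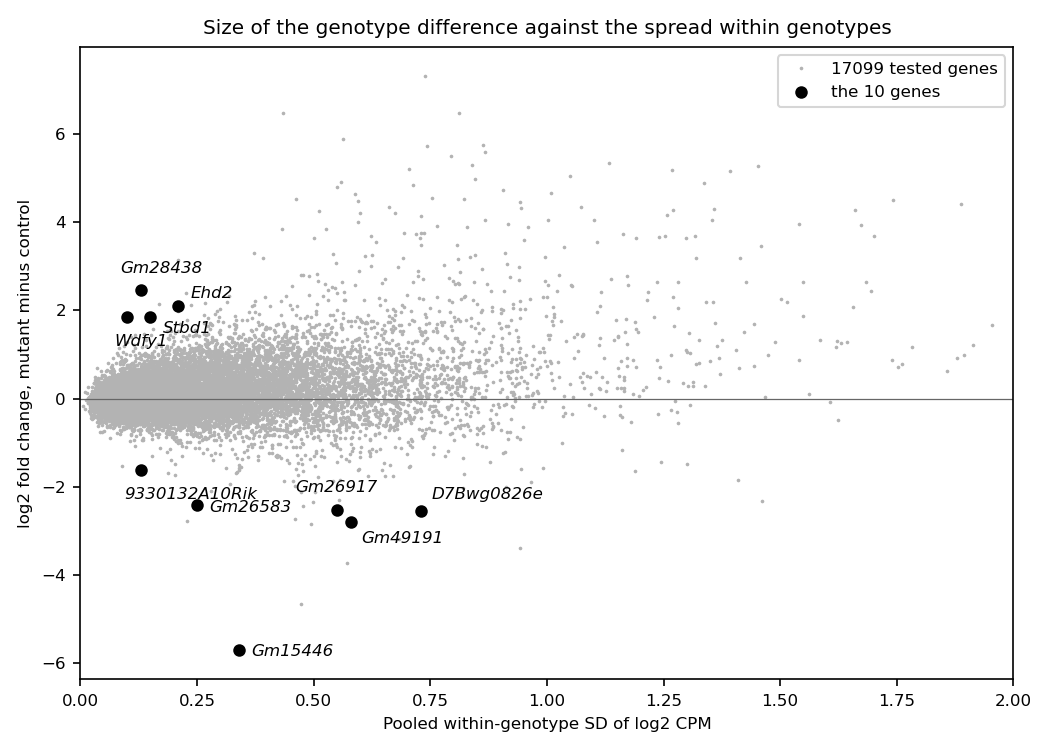
Log2 fold change (mutant minus control) against the pooled within-genotype SD of log2 CPM for the 17099 tested genes (grey; 10 genes beyond the axis are not drawn) and the 10 described here (black). Wdfy1, Gm28438, Stbd1 and 9330132A10Rik combine a large difference with an SD of 0.10 to 0.15, whereas Gm26917, Gm49191 and D7Bwg0826e lie at 0.55 to 0.73.

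The 9 genes with a position lay on 6 chromosomes: Gm28438 and Wdfy1 on chromosome 1 with starts 55.1 Mb apart, Stbd1 and Gm15446 on chromosome 5 with starts 17.3 Mb apart, Ehd2 and D7Bwg0826e on chromosome 7 with starts 28.9 Mb apart, and 1 each on chromosomes 12, 15 and 17. None lay on chromosome 18, which carries Dok6. Within 1 Mb of Dok6, 14 of 27 annotated genes had a row in the table analysed here and 4 could be tested. None of them passed with edgeR, DESeq2 or limma voom; 1, Gm45871, had an unadjusted p under 0.05 (log2 fold change 1.00 ± 0.30, adjusted p = 0.0573).

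Genes around the 9 were tested as measures that the choice had not used. Of 225 tested genes within 1 Mb, 45 passed (20.0%, beside 14.6% of all tested genes), 29 higher and 16 lower, with a median log2 fold change of -0.04. Of these 45, 18 moved in the direction of the gene they flank. None passed without control replicate 2, and 28 and 23 did without controls 1 and 3. Without mutants 1, 2 and 3 the number was 19, 13 and 39. Without control replicate 2 the adjusted p of Dok6 (edgeR) also rose, from 0.0118 to 0.0495. How many of all tested genes passed in each of these fits is not given here.

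Around Gm15446 the nearest tested neighbours were Gm26779, 32.3 kb to the left, with 0.11 ± 0.34, and Zfp932. Of 29 tested there, 2 were higher and 3 lower, led by Chek2, a checkpoint kinase gene, with 1.11 ± 0.27 (adjusted p = 0.0324). Gm42595 had -0.80 ± 0.22 (adjusted p = 0.0463), and Pgam5, a mitochondrial phosphatase gene, -0.42 ± 0.10 (adjusted p = 0.0271). Around Wdfy1, Ap1s3 and Serpine2, 30.3 and 18.1 kb away, had 0.41 ± 0.32 and -0.06 ± 0.14. Of 10 tested, none was higher with edgeR or limma voom and 1 with DESeq2, and 2 were lower: Cul3, a ubiquitin ligase scaffold gene, with -0.41 ± 0.07 (adjusted p = 0.015) and Scg2, a secretogranin gene, with -0.36 ± 0.08 (adjusted p = 0.025), both against the direction of Wdfy1. Around Gm28438 none of 15 passed with edgeR, DESeq2 or limma voom, and 1 had an unadjusted p under 0.05.

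Stbd1 had Fam47e 11.8 kb to the left and Ccdc158 1.38 kb to the right, with 1.15 ± 0.41 and 0.43 ± 0.42 (adjusted p = 0.089 and 0.506). Of 23 tested there, 3 were higher and 2 lower, and Art3, an ADP-ribosyltransferase gene, rose by 2.44 ± 0.62 (adjusted p = 0.0353). Without mutant replicate 2 Art3 had 1.49 (adjusted p = 0.0786). Its call was also lost with limma voom (adjusted p = 0.0838), with the replicate block (0.06) and without any 1 of the controls (0.0716 to 0.12). Next to Ehd2, Nop53, a ribosome assembly gene 0.884 kb away, fell by 0.44 on the log2 scale (SE 0.11, adjusted p = 0.0302), and Bicra had -0.20 ± 0.11 (adjusted p = 0.239). Of 31 tested around Ehd2, 5 were higher and 2 lower, among them Prkd2, a protein kinase D gene, with 1.10 ± 0.22 (adjusted p = 0.02). The prostacyclin receptor gene Ptgir, 939 kb from Ehd2, had 0, 2 and 1 counts in controls and 27, 71 and 92 in mutants. The complement receptor gene C5ar1 had 1, 2 and 1 against 16, 13 and 12.

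D7Bwg0826e lies in a dense region with 87 tested genes within 1 Mb. Of these, 15 were higher (17.2%) and 4 lower (4.6%), beside 8.62% and 6.01% of all tested genes. Its nearest tested neighbours Med25 and Ap2a1 had -0.26 ± 0.08 and -0.08 ± 0.08 (adjusted p = 0.0515 and 0.502). Plekha4 rose by 3.63 ± 0.84 (adjusted p = 0.027), with 67, 28 and 17 counts in controls and 137, 1096 and 247 in mutants. Without mutant replicate 2 its log2 fold change was 2.23 (adjusted p = 0.0485), and without control replicate 1 it was 4.36 (adjusted p = 0.0502). The call was also lost with limma voom (adjusted p = 0.103) and the replicate block (0.0704). The same held without control replicates 2 and 3 (adjusted p = 0.12 and 0.0738). Slc17a7, a vesicular glutamate transporter gene, rose by 3.49 ± 0.50 (adjusted p = 0.00918) and Rcn3 by 1.88 ± 0.37 (adjusted p = 0.0186); Irf3 and Gys1, given above, also lie in this window. Around Gm26583, Nudt14 and Brf1 had 0.25 ± 0.18 and -0.06 ± 0.12, and of 28 tested 4 were higher and 2 lower. The largest of these were Ahnak2 and Crip1, with 1.83 ± 0.28 and 1.83 ± 0.33 (adjusted p = 0.0101 and 0.0151), and Inf2, a formin gene, with 1.48 ± 0.33 (adjusted p = 0.0254). Gm49191 and Gm26917 each had 1 tested gene in the window, Cdh18 and CT010467.1.

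**Figure D4:**
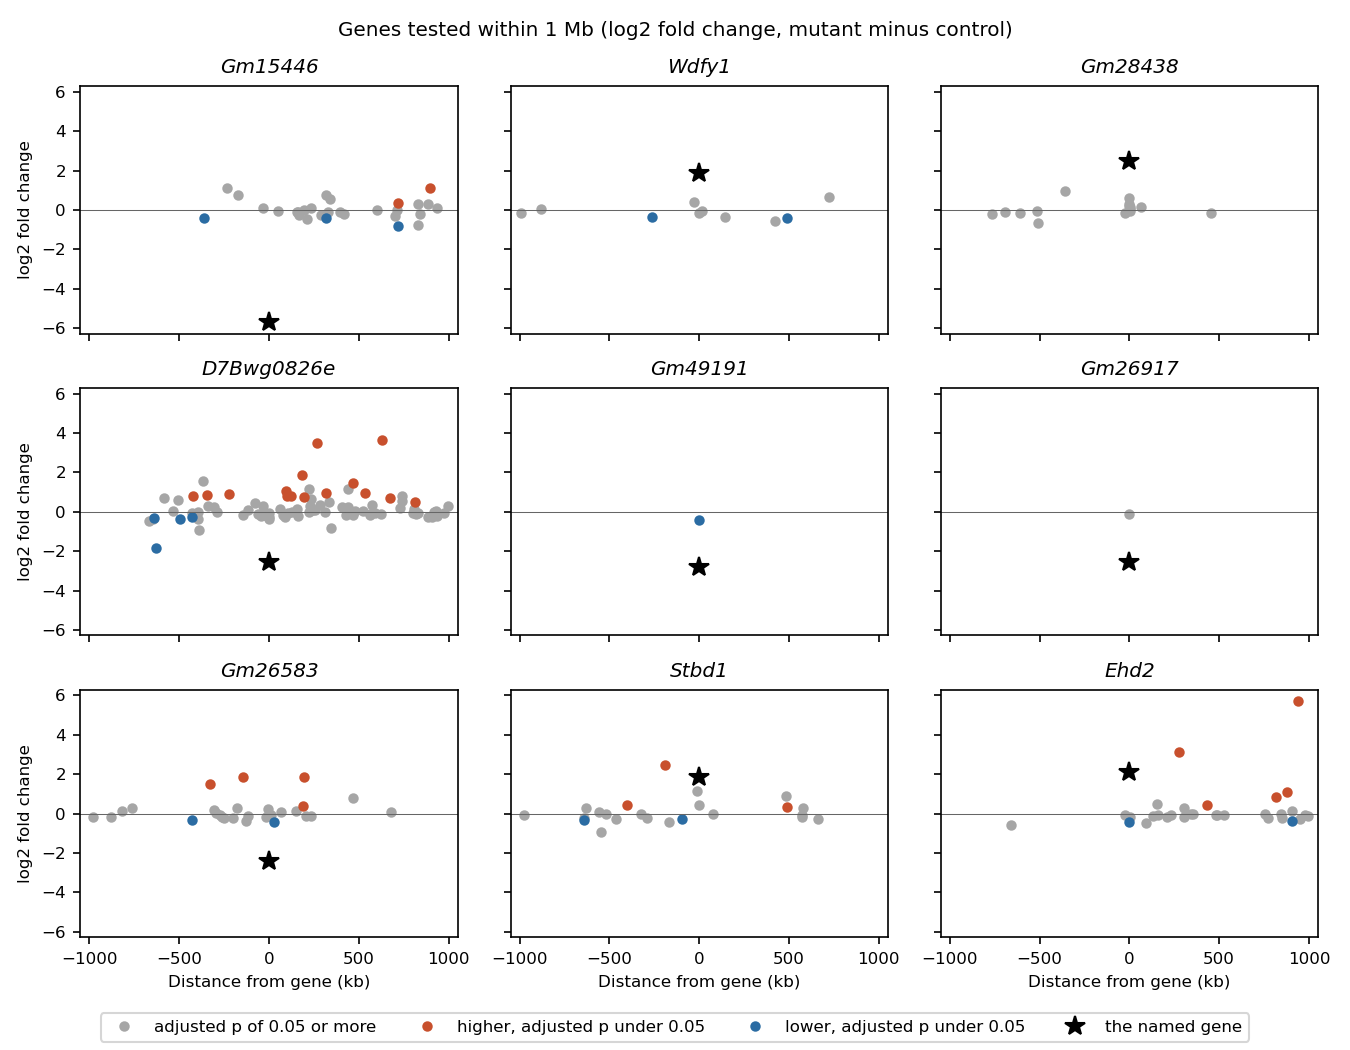
Log2 fold change (mutant minus control) of every tested gene within 1 Mb of 9 of the genes against its distance from that gene in kb; the black star is the gene itself, and colours mark genes with an adjusted p under 0.05. Of 225 neighbours, 45 passed (20.0%, beside 14.6% of all tested genes). Around D7Bwg0826e, 15 of 87 neighbours are higher and 4 lower.

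Loci at which C57BL/6 substrains are known to differ were read from a list of 7, of which 6 were tested. With edgeR and with limma voom 2 passed, against 4 with DESeq2 and 4 with no filter on low counts. Beside them, 14.6% of all tested genes passed with edgeR, and no such share is given for the other fits. The list was chosen with earlier results of these data known, so its count is a description. Gabra2 stood at rank 10 by p and Crb1 was 17th among called falls by size. Gabra2, in which C57BL/6J carries an intronic deletion that lowers its RNA, had 482, 379 and 628 counts in controls and 2446, 2286 and 1817 in mutants. It rose by 2.03 ± 0.19 (adjusted p = 0.00399), and no control overlapped a mutant. Crb1, which carries the rd8 frameshift in C57BL/6N, had 153, 110 and 70 counts in controls and 33, 19 and 31 in mutants, and fell by 2.11 on the log2 scale (SE 0.34, adjusted p = 0.0121). Without control replicate 2 Crb1 did not pass (-2.12, adjusted p = 0.0656), whereas Gabra2 did (1.86, adjusted p = 0.0231).

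No other locus of that list passed with edgeR as fitted here. Nnt, a mitochondrial transhydrogenase gene that lacks several exons in C57BL/6J, had 9, 11 and 12 counts in controls and 3, 13 and 11 in mutants, a log2 fold change of -0.34 ± 0.53 (adjusted p = 0.685), and was low in both genotypes. Cyfip2, in which C57BL/6N carries a missense change, had -0.14 ± 0.08 (adjusted p = 0.243). Mmrn1, which is deleted in some C57BL/6 stocks, had 1.76 ± 0.68 (adjusted p = 0.109), and passed with DESeq2 and with no filter (adjusted p = 0.0469 and 0.0392). Its value rested on single libraries, at 1.05 without mutant replicate 1 and 2.60 without control replicate 1. Nlrp12 had 2 to 6 counts and was not tested. Alleles at these loci were not tested, and none of the 10 genes is on the list.

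Over the 6 libraries, the genes whose log2 CPM most resembled that of each gene were found by Pearson's r, given as a description because all points share the genotype. Gm15446 was most like 9330132A10Rik (r = 0.997), and Gm28438 and Stbd1 were both most like Ttpal, a gene related to a tocopherol transfer protein, with r = 0.999 and 0.998. Stbd1 was also the second likest gene to Gm28438 (r = 0.997). Wdfy1 was likest to Gigyf2 and Setdb1 (both r = 0.996), 9330132A10Rik to Rab12 and Prpf3, Ehd2 to Rprd1a and Fam129a, D7Bwg0826e to Nploc4 and Ptov1, Gm49191 to Plpp6 and Gm6682, Gm26917 to Scaf8 and Sfmbt1, and Gm26583 to Dis3 and Tsr2, all with r of 0.994 or more. The likest genes moved far less in most cases: Ttpal had a log2 fold change of 0.15, and Txndc9, second to Gm15446, had -0.41. Exceptions were Pla2g4b, second to Stbd1 (r = 0.997), with 1.75, and Fam129a, second to Ehd2, with 1.56.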

How the data were processed

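Sciatic nerve RNA of postnatal day 3 mice (3 control, 3 Dok6 mutant) was analysed from the table the authors deposited, whole-number counts of reads per gene, not normalized. The submitters' processing notes name the genome build mm10. The aligner, the counting tool and the use of strand are not given in the sources used here; the labels name the NEBNext Ultra RNA kit and the study's methods its directional form. Replicates are separate mice, and columns were matched by genotype and number.

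The 10 genes and all gene lists were chosen with earlier results of these data known. Genes were kept by filterByExpr and scaled by TMM, and all 6 libraries entered a quasi-likelihood fit in edgeR 4.0.16 (R 4.3.3) with genotype alone; the study's methods name DESeq2, which was run here as an alternative. P-values were adjusted by Benjamini-Hochberg over 17099 genes. SE came from the F statistic, and log2 CPM used a prior count of 2. The biological coefficient of variation was 16.6%. On simulated counts over 16571 genes the fit called 92 of 100 genes changed by 1.5 on the log2 scale, 98 of 99 changed by 2.5 and 15 of 16372 unchanged.

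Positions and exons came from GENCODE M21 on GRCm38, which holds 54409 of the identifiers. Exon overlaps were counted on either strand, and BLAST 2.17.0 matched transcripts with an identity of 95% or above along 200 bases or more. Floors and intervals cover counting error only. The genes named are the 10, Dok6, genes overlapping or near-identical to them, the nearest tested gene on each side and up to 3 called genes within 1 Mb, up to 5 called genes of each list, the substrain loci except 1 that is not reported here, the 2 likest genes of each, and the 10 other genes of largest separation. Genes outside this rule (Aqp1, Gm37023, the mitochondrial copies, list members that did not pass) were named after their values were seen. Where a symbol had more than 1 row, the row with most counts was used. Alternatives were DESeq2 1.42.0, limma 3.58.1 voom, other scalings and filters, a replicate block, other windows and identities, and each mouse left out.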

Additional observations from a re-analysis of the deposited data

How the results depend on the processing

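Of 126 alternative values of the 10 genes, 119 kept their direction and their side of the threshold, 7 lost the threshold and none changed sign. All 10 passed except that 6 did with at least 10 counts in every library, where only those 6 could be fitted, 9 did with the replicate block (D7Bwg0826e, adjusted p = 0.0521), and 6 to 10 did with a mouse left out. Dok6 kept its call throughout, at -1.39 to -1.12 with a mouse left out. Flanking genes past the threshold numbered 9 with the replicate block and 0 to 39 with a mouse left out. Pathway list genes numbered 20 with no filter on low counts, 4 with the replicate block and 0 to 22 with a mouse left out. Overlapping or near-identical genes numbered 1 with DESeq2, 1 with no filter and 0 to 1 with a mouse left out. Substrain loci numbered 4 with DESeq2, 4 with no filter and 1 to 3 with a mouse left out. The cause of these shifts was not tested. The sign turned with a mouse left out for genes that never passed: Zfp932 (-0.14 to 0.09), Nnt (-0.72 to 0.08), Gm26779 (-0.02 to 0.35), Serpine2 (-0.16 to 0.09), CT010467.1 (-0.29 to 0.00) and Brf1 (-0.13 to 0.06). Same-numbered mice did not deviate together (correlations -0.00781, -0.168 and -0.243), so the numbers were not taken as pairs. With 3 mice a genotype and few counts in mutants, the sizes of Gm15446, Gm49191 and D7Bwg0826e are imprecise.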

Other observations

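Outside the 10 genes, the genes with the largest separation of the genotypes relative to the spread within them, out of 862 that differed by over 1 on the log2 scale and reached 1 CPM in all libraries of the genotype with the higher level, were Gm49092, Fgd3, Riox2, Fam83h, B130024G19Rik, Dok1, Pnpla3, Fndc8, Tgfb1i1 and Pla2g4b. They were selected on this contrast and are given without a test. Gm49092, a long intergenic noncoding RNA on chromosome 17, was the only one of these 10 that was lower in the mutant, at 2.07, 2.06 and 1.83 CPM in controls and 0.674, 0.655 and 0.742 CPM in mutants. Fgd3, an exchange factor gene for a small GTPase, was 5.34, 4.59 and 5.20 CPM in controls and 11.4, 11.2 and 11.1 in mutants. Dok1, which encodes a docking protein of the same family as DOK6, was 1.20, 1.15 and 1.09 CPM in controls and 3.32, 3.33 and 2.76 in mutants, a log2 fold change of 1.45 ± 0.25 (SE). Pnpla3, a lipid droplet lipase gene, was 2.12, 2.06 and 1.94 CPM in controls and 4.41, 4.47 and 3.87 in mutants. Tgfb1i1, a focal adhesion protein gene on chromosome 7, was 12.9 to 13.9 CPM in controls and 25.3 to 29.6 in mutants.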
